A study of Mus musculus with 8 samples.

Results

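The ERVK elements are the mouse long terminal repeat (LTR) retroelements that the deposited repeat table lists under LTR with a family containing ERVK. By that rule 283 of the 1499 repeat names in the table were members, and the rule used no measured value. They were described as 25 names that begin with IAP, 5 names that contain ETn and 253 other names, 2 of which carry the family ERVK with a question mark. Of these names 275 passed the filter on low counts, namely all 25 IAP names, all 5 ETn names and 245 of the 253 others. The 8 names that did not pass had between 1 and 32 reads in all 8 libraries together.

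Poly(A) RNA came from cultures of mouse embryonic stem cells with a MERVL::EGFP reporter, grown on gelatin in serum, leukemia inhibitory factor and 2i, the kinase inhibitors CHIR99021 and PD0325901. All cells were transfected with siRNA on consecutive days, and every group had 2 libraries that the submitters call biological replicates. The first group received 10 pmol siRNA to Chaf1a and 10 pmol of si308, the second 10 pmol siRNA to Chaf1a and 10 pmol of si309 (the label of 1 of its libraries gives no dose), the third 10 pmol siRNA to Chaf1a and 10 pmol negative control siRNA (called Chaf1a siRNA alone), and the fourth 20 pmol negative control siRNA (called the negative control). The pools si308 and si309 were made by dicing RNA transcribed from different fragments of the mouse Dux locus, called mDux in the labels. Knock-down was transient, the labels give no sorting step, and what is named a group is a whole culture.

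ERVK elements are endogenous retroviruses related to betaretroviruses; an internal part codes for viral proteins and is flanked by LTRs that carry the promoter, and many copies remain only as solitary LTRs. Intracisternal A particles (IAP) and early transposons (ETn) are the ERVK families best known for new insertions in laboratory mice, and in embryonic stem cells such elements are kept silent largely by KRAB zinc finger proteins that bring TRIM28 and the H3K9 methyltransferase SETDB1 to them. CHAF1A is the large subunit of chromatin assembly factor 1, which puts histones H3 and H4 onto newly made DNA, and Dux is a transcription factor that switches on genes and MERVL elements of the 2-cell embryo.

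Chaf1a (GRCm38 17:56040439-56072289, plus strand) stood at 36.3 and 34.7 counts per 1000000 gene counts (CPM) with si308, 34.9 and 30.3 with si309 and 29.4 and 31.4 with Chaf1a siRNA alone, against 127 and 129 in the negative control. All 6 depleted libraries lay below both control libraries, and the fitted level with Chaf1a siRNA alone was 4.21-fold lower. Dux, the target of the pools and listed under the identifier that GENCODE names Duxf3, had 1 and 4 reads with si308, 5 and 9 with si309 and 256 and 193 with Chaf1a siRNA alone, against 0 and 2 in the negative control, and its tandem copies may share reads. Both pool groups were far below Chaf1a siRNA alone. Over the negative control Dux was called raised with si309, by 2.57 on the log2 scale (edgeR adjusted p = 0.013) at few reads. It was not called with si308, at 1.05 (edgeR adjusted p = 0.41). Libraries held 26042851 to 42375685 gene counts and 1746498 to 2945624 repeat counts, with 8.46 and 8.75 repeat counts per 100 gene counts in Chaf1a siRNA alone and 6.25 to 7.70 in the other 6 libraries. The embryonic stem cell markers were measured in all groups, with 10 of 10 genes above 0 and sums of 5171 to 5405 CPM with si308, 4981 to 5008 with si309, 4948 to 5016 with Chaf1a siRNA alone and 6436 to 6468 in the negative control. The 2 si308 libraries differed most: library 0 was above library 1 for 243 of 275 tested ERVK names, by a median log2 difference of 0.19. Library 0 was higher for 142 names with si309 (median 0.0047), 84 with Chaf1a siRNA alone (-0.06) and 91 in the negative control (-0.064). In the last 2 groups library 1 was thus mostly higher. Which library of a pair departs cannot be told from 2.

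Values are reads summed over all copies of a name in the genome, given per 1000000 gene counts of the library, so a name has no single position. How reads that match several copies were handled is not given in the sources used here, and names with near-identical sequence, such as an LTR and its subfamilies, may share reads. Differences are log2 fold changes from edgeR's quasi-likelihood test over all 1255 repeat names that passed the filter, and a name is called raised or lowered at a Benjamini-Hochberg adjusted p under 0.05. The fit found no spread of its own for single names, so p-values rest on the spread shared over repeats and on 2 libraries a group. More RNA per cell and more cells of a type that carries the RNA cannot be told apart in these cultures.

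With Chaf1a siRNA alone most IAP and other ERVK names had higher counts than in the negative control, and the ETn names were split. Of the IAP names 20 of 25 rose and 3 fell, with a median log2 change of 0.64. Of the ETn names 2 of 5 rose and 2 fell, with a median of -0.13. Of the other ERVK names 173 of 245 rose and 5 fell, with a median of 0.45. Fewer other ERVK names were called raised whenever a library of either group was left out. Among all 1255 repeat names 57.7% rose and 1.83% fell, with a median of 0.39, so the share of raised names among all ERVK names, 70.9%, stands against a background in which most repeats were also called. A rise of at least 2-fold was found for 53 of 275 ERVK names, against 167 of 1255 repeat names, or 13.3%. The 53 were 6 of 25 IAP names, 0 of 5 ETn names and 47 of 245 others. Of ERV1 names 24 of 109 rose at least 2-fold, and of ERVL names other than MaLR 24 of 101.

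These counts depend on how libraries are made comparable. With the trimmed mean of M values (TMM) of the genes in place of plain totals, the median change of all genes was 0.06 in place of 0.22, and the median over all repeat names was 0.23 in place of 0.39. IAP names then gave 19 raised and 3 lowered, ETn names 0 raised and 3 lowered, and other ERVK names 127 raised and 7 lowered, against 39.4% raised and 2.87% lowered among all repeat names. In the authors' deposited table, 13 IAP, 0 ETn and 94 other ERVK names were raised and 3, 3 and 7 were lowered, against 26.5% raised and 2.32% lowered among all repeat names. The neighbouring classes had 70 of 109 ERV1 names raised, with a median of 0.64, and 64 of 101 ERVL names other than MaLR raised and 2 lowered, with a median of 0.63; the classes were not tested against each other.

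**Figure D1:**
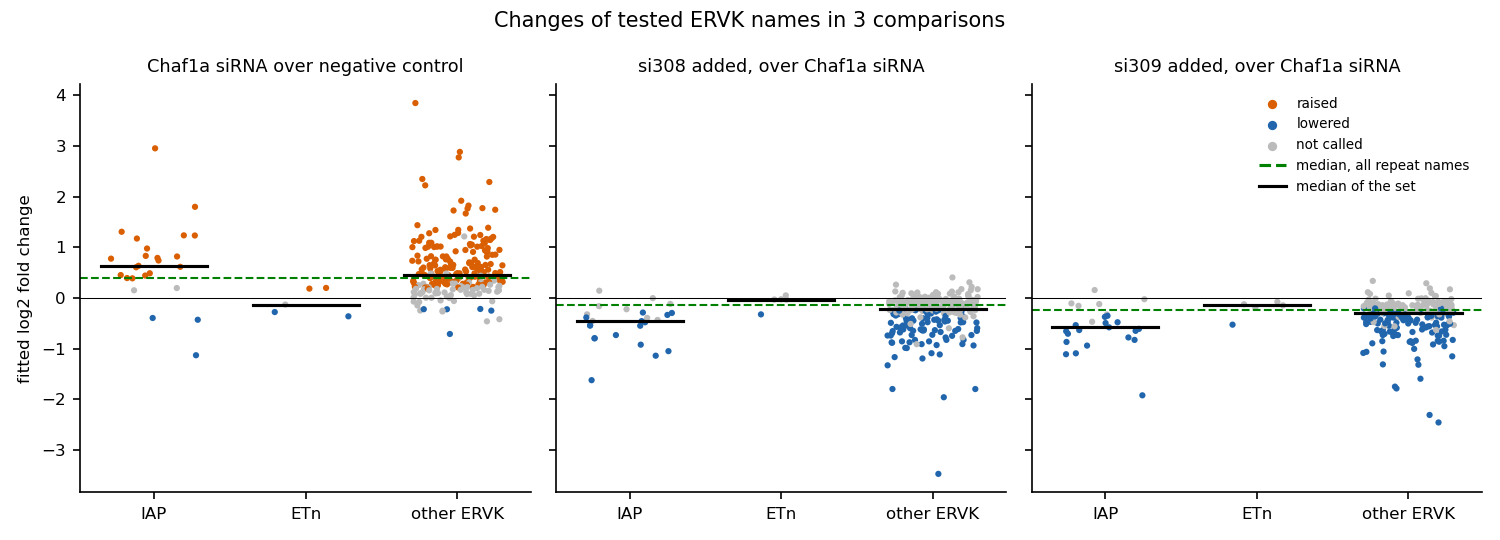
Each point is 1 tested ERVK name and the y axis is its fitted log2 fold change on gene count totals, in the comparison named above each panel; black bars are set medians and the dashed line is the median of all 1255 repeat names. With Chaf1a siRNA over the negative control the medians are 0.64 for IAP, -0.13 for ETn and 0.45 for other ERVK, and with si308 or si309 added all 3 medians lie below 0.

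The summed read counts show the same 3 sets by library. IAP names together had 405 and 356 CPM with si308, 371 and 373 with si309 and 511 and 525 with Chaf1a siRNA alone, against 346 and 368 in the negative control. Both libraries of Chaf1a siRNA alone were above the other 6, and the libraries with a pool overlapped the control range only through si308 library 1. ETn names together had 1802 and 1662 with si308, 1647 and 1564 with si309 and 1779 and 1751 with Chaf1a siRNA alone, against 2194 and 2057 in the negative control. All 6 depleted libraries were below both control libraries. Other ERVK names had 5428 and 4927 with si308, 4954 and 4893 with si309 and 6077 and 6314 with Chaf1a siRNA alone, against 4438 and 4543 in the negative control, with the 4 pool libraries between the other groups. Scaled with TMM factors, the pool groups no longer stood above the control: IAP names had 392 and 347 TMM-scaled CPM with si308, 358 and 359 with si309 and 499 and 514 with Chaf1a siRNA alone, against 380.1 and 399.9 in the negative control, and other ERVK names had 5259.6 and 4805 with si308, 4769 and 4715 with si309 and 5938 and 6182 with Chaf1a siRNA alone, against 4869 and 4938 in the negative control. In that scaling Chaf1a siRNA alone was above the control for both sets, both sums were below it in both si309 libraries, and the si308 libraries overlapped it or lay on both sides of it. As a share of all repeat counts, ERVK names were 9.95% ± 0.0568 with si308, 9.98% ± 0.108 with si309, 9.86% ± 0.0553 with Chaf1a siRNA alone and 11.0% ± 0.252 in the negative control (SD, n = 2 each). Within this share, ETn names were 2.36% of repeat counts with si308, 2.32% with si309 and 2.05% with Chaf1a siRNA alone, against 3.35% in the negative control.

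**Figure D2:**
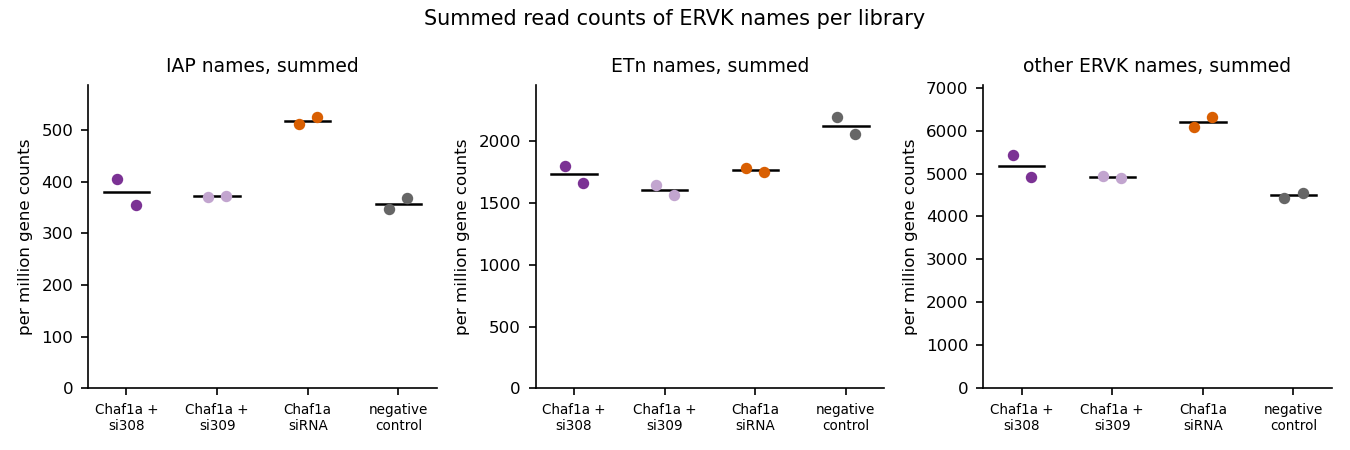
Summed counts of the IAP, ETn and other ERVK names in each library, in CPM (y axes start at 0), with points for libraries and bars for group means, groups from left to right si308, si309, Chaf1a siRNA alone and negative control. IAP is highest in Chaf1a siRNA alone at a mean of 518, and ETn is highest in the negative control at a mean of 2126.

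MMERVK10C and its LTR were higher than the control in all depleted groups. MMERVK10C-int, the internal part of a young ERVK family, had 203 and 202 CPM with si308, 236 and 227 with si309 and 352 and 380.1 with Chaf1a siRNA alone, against 104 and 103 in the negative control. No 2 groups overlapped: both controls were lowest, the pools were between, and Chaf1a siRNA alone was highest. Chaf1a siRNA over the control gave a log2 change of 1.82 ± 0.08 (SE; edgeR adjusted p = 1.9e-106). RLTR10C, the LTR paired with MMERVK10C, had 35.6 and 32.9 CPM with si308, 37.8 and 35.6 with si309 and 57.2 and 64.1 with Chaf1a siRNA alone, against 17.6 and 17.8 in the negative control. It showed the same order of groups, with a log2 change of 1.77 ± 0.095 for Chaf1a siRNA over the control (edgeR adjusted p = 8.2e-73).

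RLTR10B2, a further LTR of that name group, rose by 2.77 ± 0.14 (edgeR adjusted p = 2e-81), with 8.18 and 7.50 CPM with si308, 8.62 and 9.61 with si309 and 16.2 and 17.7 with Chaf1a siRNA alone, against 2.83 and 2.18 in the negative control. The libraries of each depleted group lay above both controls, and both of Chaf1a siRNA alone lay above all pool libraries. RLTR10B, RLTR10D2 and the internal parts RLTR10-int and MMERVK10D3_I-int moved the same way, by 1.74, 1.34, 1.37 and 1.28 on the log2 scale. Of the 10 names that begin with RLTR10, 9 rose and 0 fell in this comparison, with a median of 1.25, and 8 rose with gene TMM factors. Among all repeat names 57.7% rose and 1.83% fell, or 39.4% and 2.87% with TMM factors. The RLTR10 names were set apart after their values were seen, and RLTR10-int and MMERVK10D3_I-int were named then as well.

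ERVB4_2 elements rose with Chaf1a siRNA alone and overlapped the control with either pool. ERVB4_2-LTR_MM had 4.35 and 3.92 CPM with si308, 4.91 and 4.58 with si309 and 14.5 and 14.0 with Chaf1a siRNA alone, against 5.30 and 3.26 in the negative control. The libraries of both pools lay within the control range and those of Chaf1a siRNA alone were far above it, with a log2 change over the control of 1.76 ± 0.13 (edgeR adjusted p = 1e-38). Its internal part ERVB4_2-I_MM-int had 8.25 and 9.30 CPM with si308, 10.0 and 9.04 with si309 and 18.4 and 21.3 with Chaf1a siRNA alone, against 8.88 and 9.65 in the negative control, a log2 change of 1.09 for Chaf1a siRNA over the control (edgeR adjusted p = 1.6e-20). Here too the pool libraries overlapped the control. ERVB4_1B-LTR_MM, ERVB4_3-I_MM-int and ERVB4_3-LTR_MM rose as well, by 0.90, 1.05 and 2.88. The last had only 4 and 7 reads in the control libraries. It passed the filter on low counts only through Chaf1a siRNA alone, so its rise is not independent of that filter. DESeq2 did not call ERVB4_3-I_MM-int (adjusted p = 0.055). Of all 20 tested ERVB names 14 rose and 2 fell, against 57.7% raised and 1.83% lowered among all repeat names.

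Several other LTRs and internal parts were far above the control at low counts. RLTR20A1 had 1.78 and 1.32 CPM with si308, 1.61 and 1.47 with si309 and 5.83 and 4.65 with Chaf1a siRNA alone, against 1.11 and 0.976 in the negative control. Both libraries of Chaf1a siRNA alone were above the other 6, and the log2 change over the control was 2.35 ± 0.20 (edgeR adjusted p = 2.9e-29). RLTR13D, ERVB2_1-I_MM-int, ERVB5_1-I_MM-int and RLTR46A2 rose by 2.29, 2.22, 1.73 and 1.67. The largest fitted change, 3.84 for RLTR12F, which was named after its value was seen, rests on 31 and 26 reads with Chaf1a siRNA alone against 2 and 2 in the negative control. RLTR12F had 3 and 3 reads with si308 and 5 and 8 with si309. It passed the filter on low counts only through Chaf1a siRNA alone, so its size and rank are not independent of that filter.

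By structure, 25 of 32 internal parts of other ERVK elements rose and 2 fell, with a median of 0.53, and 148 of 213 tested LTR names rose and 3 fell, with a median of 0.44. By name, 89 of 132 RLTR names outside RLTR10, 34 of 43 RMER names, 10 of 17 MLTR names, 5 of 7 BGLII names, 5 of 6 MMERVK or MERVK names and 3 of 3 MYSERV names rose. Among all 1255 repeat names 57.7% rose and 1.83% fell. The raised share was 78.1% for internal parts, 69.5% for LTR names, 67.4% for RLTR outside RLTR10, 79.1% for RMER and 58.8% for MLTR. In these name families 1 RLTR name outside RLTR10 and 1 MMERVK or MERVK name fell. With TMM factors 20 internal parts, 107 LTR names, 67 RLTR names outside RLTR10, 22 RMER names and 6 MLTR names rose. BGLII, MMERVK or MERVK and MYSERV names then gave 3, 4 and 2 raised, against 39.4% of all repeat names. RMER16-int, among the names with most reads, had 181 and 178 CPM with si308, 187 and 187 with si309 and 228 and 245 with Chaf1a siRNA alone, against 178 and 173 in the negative control. Both libraries of Chaf1a siRNA alone were above all others, a smaller step of 0.43 ± 0.078 (edgeR adjusted p = 2.2e-07) that was -0.0099 when repeat totals set the scale.

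Of the 5 other ERVK names that fell, MMTV-int changed most. MMTV-int, the internal part of mouse mammary tumor virus elements, had 3.92 and 3.02 CPM with si308, 3.56 and 3.43 with si309 and 2.83 and 2.88 with Chaf1a siRNA alone, against 4.47 and 4.83 in the negative control. All 6 depleted libraries were below the control, and the change with Chaf1a siRNA alone was -0.71 ± 0.17 on the log2 scale (edgeR adjusted p = 7e-05). ERVB4_1C-LTR_Mm, MMERVK9C_I-int, ERVB7_1-LTR_MM and RLTR13G changed by -0.25, -0.22, -0.22 and -0.22. The calls of these 4 names were lost with single libraries left out: ERVB4_1C-LTR_Mm (-0.19 without negative control library 0 and -0.23 without library 0 of Chaf1a siRNA alone), MMERVK9C_I-int (-0.20 without negative control library 0 and -0.19 without library 1 of Chaf1a siRNA alone), ERVB7_1-LTR_MM (-0.20 without negative control library 1 and -0.19 without library 0 of Chaf1a siRNA alone) and RLTR13G (-0.12 without negative control library 0, -0.18 without library 0 and -0.25 without library 1 of Chaf1a siRNA alone). The count of 5 was 3 without negative control library 0, 4 without negative control library 1, 2 without library 0 of Chaf1a siRNA alone and 3 without its library 1. The names with at least 10 CPM and the smallest differences, RLTR12E, RLTR19-int and RLTR22_Mus, were at -0.00028, 0.0048 and -0.05 and were not called.

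**Figure D3:**
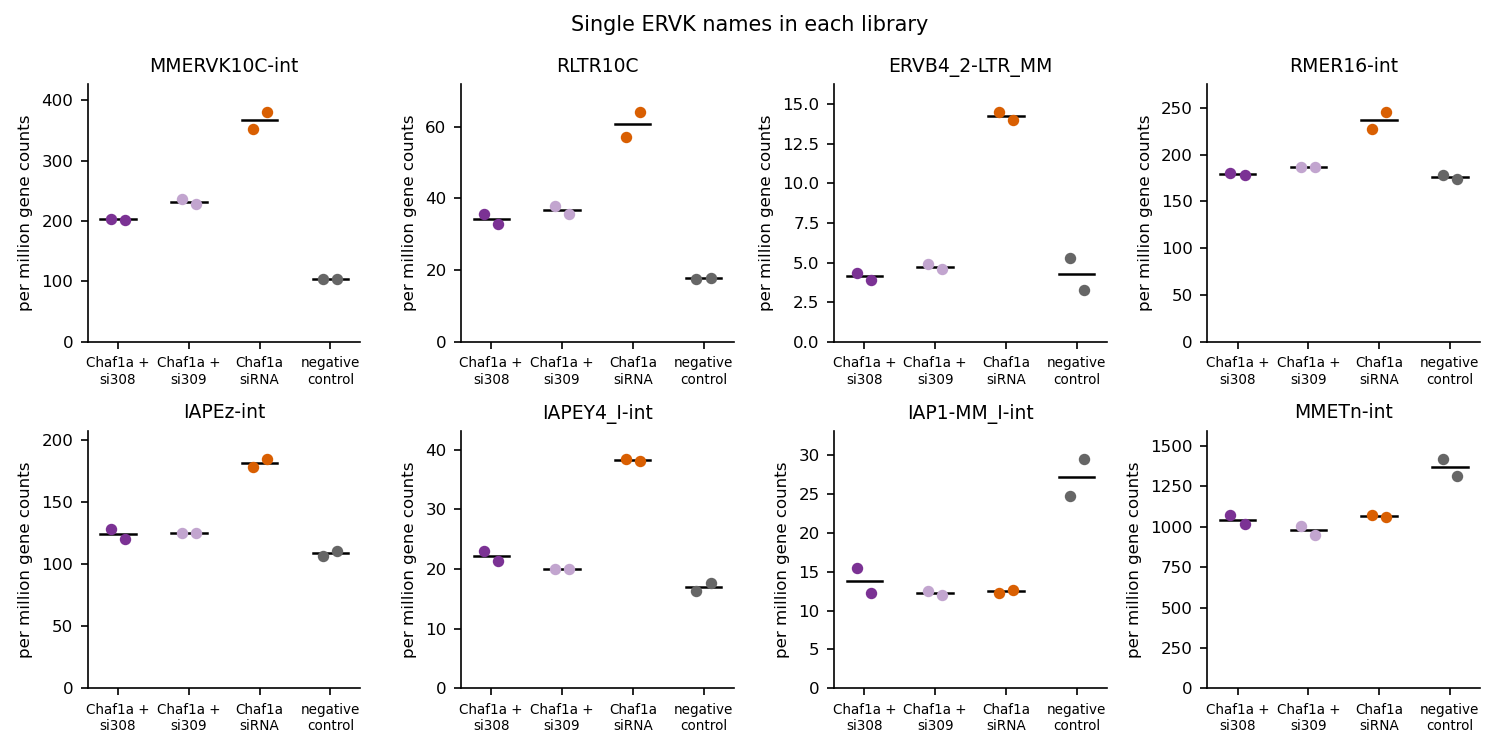
Counts in CPM of 8 ERVK names in each library (y axes start at 0), with points for libraries and bars for group means, groups from left to right si308, si309, Chaf1a siRNA alone and negative control. MMERVK10C-int and RLTR10C stay above the control with both pools, ERVB4_2-LTR_MM does not, and IAP1-MM_I-int and MMETn-int are highest in the negative control.

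Among the IAP names, the internal part IAPEz-int held 33.2% of all IAP reads. It had 128 and 121 CPM with si308, 125 and 126 with si309 and 178 and 185 with Chaf1a siRNA alone, against 107 and 111 in the negative control. Chaf1a siRNA alone was above the other groups in both libraries, with a log2 change over the control of 0.74 ± 0.08 (edgeR adjusted p = 5.9e-19). IAPEY4_I-int had 23.0 and 21.3 CPM with si308, 19.9 and 20.1 with si309 and 38.5 and 38.1 with Chaf1a siRNA alone, against 16.3 and 17.6 in the negative control. Its rise of 1.17 ± 0.099 (edgeR adjusted p = 1e-30) again left no overlap with any other group.

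LTR names of IAP elements rose too. IAPLTR2a2_Mm had 16.6 and 14.4 CPM with si308, 15.0 and 15.1 with si309 and 26.9 and 26.6 with Chaf1a siRNA alone, against 11.2 and 11.5 in the negative control, a log2 change of 1.23 ± 0.11 for Chaf1a siRNA over the control (edgeR adjusted p = 2.7e-29). IAPLTR1a_Mm had 5.11 and 4.65 CPM with si308, 4.28 and 4.35 with si309 and 8.63 and 9.83 with Chaf1a siRNA alone, against 3.69 and 3.74 in the negative control, a log2 change of 1.31 ± 0.14 (edgeR adjusted p = 6e-19). For both LTRs Chaf1a siRNA alone was highest and the 4 pool libraries lay just above the control. IAPLTR2b, IAPLTR3, IAPEY3C_LTR, IAPLTR2a and IAPLTR1_Mm rose by 0.98, 0.82, 0.79, 0.78 and 0.39, and IAPLTR4_I by 1.24. The internal parts IAP-d-int and IAPEY3-int rose by 0.49 and 0.39. DESeq2 did not call IAPLTR3, IAPEY3C_LTR, IAPEY3-int or IAPLTR1_Mm (adjusted p = 0.052, 0.057, 0.11 and 0.12). IAPEY5_I-int and IAPEY5_LTR had the largest fitted changes of the set, 2.95 and 1.80; for IAPEY5_I-int this rests on 49 and 47 reads with Chaf1a siRNA alone against 9 and 4 in the negative control. Of the 9 names with -int, the internal parts, 7 rose and 2 fell. Of the 16 others, counted as LTR names, 13 rose and 1 fell, against 57.7% and 1.83% of all repeat names. IAPLTR4_I was counted with the LTR names, though _I also occurs in internal names such as IAPEY4_I-int.

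The 3 lowered IAP names were IAP1-MM_I-int, IAPEy-int and IAPEY_LTR. IAP1-MM_I-int had 15.5 and 12.2 CPM with si308, 12.6 and 11.9 with si309 and 12.3 and 12.6 with Chaf1a siRNA alone, against 24.7 and 29.5 in the negative control. All 6 depleted libraries were below both controls and overlapped each other, and the change with Chaf1a siRNA alone was -1.13 ± 0.11 (edgeR adjusted p = 4.4e-25). IAPEy-int had 17.1 and 11.1 CPM with si308, 14.0 and 14.7 with si309 and 19.2 and 21.4 with Chaf1a siRNA alone, against 26.5 and 28.0 in the negative control, a change of -0.43 ± 0.1 with Chaf1a siRNA alone (edgeR adjusted p = 6.2e-05). Both pools were lower still. IAPEY_LTR was at -0.39 (edgeR adjusted p = 0.0031), a call lost without negative control library 1 (-0.28) or without library 0 of Chaf1a siRNA alone (-0.34).

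The abundant ETn names were lower with Chaf1a siRNA alone. MMETn-int, the internal part that held 61.7% of all ETn reads, had 1074 and 1015 CPM with si308, 1007 and 951 with si309 and 1075 and 1058 with Chaf1a siRNA alone, against 1422 and 1316 in the negative control. All 6 depleted libraries were below both controls, and Chaf1a siRNA alone differed from the control by -0.36 ± 0.075 (edgeR adjusted p = 5.5e-06). ETnERV-int had 360.0 and 329 CPM with si308, 319.7 and 314 with si309 and 348 and 352 with Chaf1a siRNA alone, against 432 and 416 in the negative control, a change of -0.28 ± 0.076 (edgeR adjusted p = 0.00077). These are the 2 lowered names, and both kept the call under every alternative that was run.

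The other 3 ETn names were less clear. RLTRETN_Mm, the LTR of ETn elements, had 124 and 118 CPM with si308, 111 and 107 with si309 and 123 and 124 with Chaf1a siRNA alone, against 138 and 132 in the negative control. Chaf1a siRNA alone was below the control in both libraries, but the difference of -0.13 was not called on gene totals (edgeR adjusted p = 0.15) and was called with TMM factors at -0.29 (edgeR adjusted p = 0.00071). ETnERV2-int had 41.9 and 34.6 CPM with si308, 32.6 and 33.6 with si309 and 47.2 and 48.2 with Chaf1a siRNA alone, against 42.5 and 40.6 in the negative control. ETnERV3-int had 202 and 166 with si308, 177 and 159 with si309 and 186 and 168 with Chaf1a siRNA alone, against 159 and 152 in the negative control. Both were called raised on gene totals, by 0.20 and 0.19 (edgeR adjusted p = 0.045 and 0.033), and not with TMM factors (edgeR adjusted p = 0.75 and 0.82) or with a replicate block. The count of 2 raised was 0 without negative control library 0, 0 without negative control library 1, 0 without library 0 of Chaf1a siRNA alone and 1 without its library 1.

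With a pool against mDux added to Chaf1a siRNA, many ERVK names were lower than with Chaf1a siRNA alone and none was called raised on gene totals. With si308 over Chaf1a siRNA alone, 16 of 25 IAP names fell with a median of -0.45, 1 of 5 ETn names fell with a median of -0.03, and 90 of 245 other ERVK names fell with a median of -0.21. Among all repeat names 24.4% fell and 0.398% rose, with a median of -0.15. With si309 over Chaf1a siRNA alone, 18 IAP names fell with a median of -0.58, 1 ETn name fell with a median of -0.14, and 125 other ERVK names fell with a median of -0.30, against 36.2% lowered and 0.159% raised among all repeat names and a median of -0.24. Both comparisons use the same 2 libraries of Chaf1a siRNA alone, so they are not independent of each other or of the comparison above. For IAP the share of lowered names was 64% with si308 and 72% with si309, and for ETn it was 20% with each.

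The counts of raised names, 0 IAP, 0 ETn and 0 other ERVK names with either pool, were 0, 0 and 0 at an unadjusted p under 0.05 and by DESeq2 as well. Repeat totals in place of gene totals ended this: with si308 1 IAP, 4 ETn and 43 other ERVK names were then raised and 11 IAP and 56 other names lowered, and with si309 3 IAP, 4 ETn and 29 other names were raised and 11 IAP and 45 other names lowered. For si308 the counts moved with single libraries. Without si308 library 0, 20 IAP and 137 other ERVK names were lowered; without si308 library 1, 10 IAP names, 0 ETn names and 66 others were lowered and 1 IAP, 1 ETn and 3 other names were raised. Without library 1 of Chaf1a siRNA alone the lowered counts for si308 were 13 IAP names, 0 ETn names and 62 others. For si309, 125 other names became 75 without library 1 of Chaf1a siRNA alone and 79 without si309 library 1.

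The LTR and the internal part of ERVB4_2 were lowered with both pools. ERVB4_2-LTR_MM differed from Chaf1a siRNA alone by -1.79 ± 0.13 with si308 and by -1.59 ± 0.13 with si309 (edgeR adjusted p = 4.7e-41 and 2.7e-33). RLTR20A1 differed by -1.79 with si308 and -1.78 with si309, RLTR10B by -1.19 and -1.15, and ERVB4_2-I_MM-int by -1.17 and -1.05. ERVB4_3-LTR_MM, ERVB2_1-I_MM-int, ERVB4_1B-LTR_MM and ERVB4_3-I_MM-int were lowered by both pools as well, at -1.96, -1.33, -0.83 and -1.09 with si308 and at -2.45, -1.75, -1.31 and -1.31 with si309. The changes of ERVB4_3-LTR_MM are not independent of the filter, which it passed only through Chaf1a siRNA alone. The si308 call of ERVB2_1-I_MM-int was lost without library 1 of Chaf1a siRNA alone (-1.14, edgeR adjusted p = 0.065) and with DESeq2 (adjusted p = 0.051). MMERVK10C-int changed by -0.85 with si308 and by -0.66 with si309 (edgeR adjusted p = 4.8e-26 and 6.3e-16). RLTR10D2 was not called with either pool, at -0.24 with si308 and -0.16 with si309.

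Of the IAP names, IAPEY5_I-int had the largest change, -1.62 with si308 and -1.92 with si309 at few reads, and IAPEY3C_LTR one of -1.14 and -1.11. IAPLTR1a_Mm, IAPEY4_I-int, IAPLTR2a2_Mm and IAPEY5_LTR changed by -0.92, -0.79, -0.79 and -1.05 with si308 and by -1.09, -0.94, -0.83 and -0.78 with si309. The si309 call of IAPEY5_LTR was lost on repeat totals (-0.47, edgeR adjusted p = 0.086), without library 1 of Chaf1a siRNA alone (-0.70, edgeR adjusted p = 0.051) or without si309 library 1 (-0.70, edgeR adjusted p = 0.069). IAPEz-int changed by -0.55 with si308 and -0.53 with si309 (edgeR adjusted p = 1.5e-10 and 3.4e-10). IAPLTR3 was not called with si308 at -0.43 and was lowered with si309 at -0.87, and IAP-d-int was called with neither, at -0.16 and -0.11. Of the names lower than the control with Chaf1a siRNA alone, IAP1-MM_I-int differed from Chaf1a siRNA alone by 0.14 with si308 and -0.02 with si309, neither called, and IAPEy-int was called lower at -0.54 with si308 and -0.49 with si309. The IAPEy-int call with si308 was lost without si308 library 1 (-0.24, edgeR adjusted p = 0.054) and with DESeq2 (adjusted p = 0.066), and its call with si309 on repeat totals (-0.18, edgeR adjusted p = 0.18) and with DESeq2 (adjusted p = 0.057). The ETn name lowered by both pools was ETnERV2-int, at -0.32 with si308 and -0.53 with si309. Its si308 call was lost without si308 library 1 (-0.19, edgeR adjusted p = 0.053), without library 1 of Chaf1a siRNA alone (-0.31, edgeR adjusted p = 0.062) and on repeat totals (-0.094, edgeR adjusted p = 0.2), while MMETn-int stood at -0.03 and -0.12, neither called.

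Set against the negative control, ERVK names were both raised and lowered with the pools. With si308 110 of 275 ERVK names were raised and 14 lowered, against 33.5% raised and 2.07% lowered among all repeat names; with TMM factors these were 39 and 21, against 10.4% and 3.75%. With si309 66 were raised and 16 lowered, against 17.5% and 2.47%; with TMM factors 29 and 36, against 6.62% and 6.78%, so that the balance turned to lowered names. In the authors' deposited table, 33 ERVK names were raised and 22 lowered with si308, against 8.59% and 4.02% of all repeat names, and 27 raised and 35 lowered with si309, against 5.83% and 9.38%. Left-out libraries moved these counts: for si308 51 raised without negative control library 0, and 8, 8 and 22 lowered without negative control library 0, negative control library 1 and si308 library 0; for si309 33, 37 and 38 raised without negative control library 0, si309 library 0 and si309 library 1, and 8 lowered without si309 library 1.

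Names of the MMERVK10C group were above the control with both pools in either scaling. MMERVK10C-int was above the control by 0.97 with si308 and 1.16 with si309 (edgeR adjusted p = 1.2e-31 and 2.4e-45), and by 0.80 and 0.98 with TMM factors. RLTR10B2, RLTR10C and RLTR10D2 were above it by 1.66, 0.95 and 1.10 with si308 and by 1.89, 1.05 and 1.18 with si309, also called with TMM factors. RLTR46A2 and RLTR13D were called in both scalings too, by 1.0 and 1.46 with si308 and by 1.16 and 1.95 with si309. With si308 RLTR13D was at 0.84 and not called without negative control library 1 (edgeR adjusted p = 0.11), and DESeq2 called neither name (adjusted p = 0.067 for each). ERVB5_1-I_MM-int, at 1.13 with si308 and 0.78 with si309, lost the si309 call with TMM factors, with DESeq2 and without negative control library 0 (0.71, edgeR adjusted p = 0.069) or si309 library 0 (0.74, edgeR adjusted p = 0.068). Of the 10 RLTR10 names 7 were raised with si308 and 7 with si309, or 6 and 4 with TMM factors. Among all repeat names 33.5% were raised with si308 and 17.5% with si309, or 10.4% and 6.62% with TMM factors.

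Of the IAP names 11 were raised and 4 lowered with si308 and 4 raised and 3 lowered with si309, but with TMM factors 1 was raised and 4 were lowered in each. IAPLTR2b was the IAP name that kept its si308 call with TMM factors, at 0.75 on gene totals, and IAPEY5_LTR the one that kept its si309 call, at 1.02. The IAPEY5_LTR call was lost with DESeq2 (adjusted p = 0.13), without negative control library 1 (0.94, edgeR adjusted p = 0.06) and without si309 library 0 (0.95, edgeR adjusted p = 0.059). IAPEz-int was at 0.19 with si308 (edgeR adjusted p = 0.046, 0.89 with TMM factors, and 0.29 and 0.11 without negative control library 0 and library 1) and at 0.20 with si309, not called. IAP1-MM_I-int and IAPEy-int were lowered with both pools, at -0.98 and -0.97 with si308 and at -1.15 and -0.92 with si309. IAP1-MM_LTR, which was not called with Chaf1a siRNA alone, was called lower at -0.58 with si308 and -0.46 with si309. Without negative control library 1 neither was called, at -0.34 with si308 (edgeR adjusted p = 0.19) and -0.22 with si309 (edgeR adjusted p = 0.49), and the si309 call was also lost without si309 library 0 (-0.47, edgeR adjusted p = 0.13) or library 1 (-0.43, edgeR adjusted p = 0.21).

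MMETn-int was lowered with both pools, at -0.39 with si308 and -0.48 with si309 (edgeR adjusted p = 3.6e-06 and 4.3e-09), and ETnERV-int at -0.30 and -0.42. With si309 4 of 5 ETn names were lowered, and with si308 2 were lowered and 1 raised, the raised one being ETnERV3-int at 0.24. That call rests on si308 library 0, without which ETnERV3-int was at 0.090 (edgeR adjusted p = 0.27), and it was also lost with TMM factors, repeat totals, DESeq2, only the groups compared, and without negative control library 0 (0.27, edgeR adjusted p = 0.062) or library 1 (0.20, edgeR adjusted p = 0.13). Of the 4 ETn calls with si309, those of ETnERV2-int and RLTRETN_Mm were lost without negative control library 0 (-0.29 and -0.28, edgeR adjusted p = 0.093 and 0.068) and without si309 library 1 (-0.35 and -0.29, edgeR adjusted p = 0.068 and 0.1), and that of ETnERV2-int without si309 library 0 (-0.30, edgeR adjusted p = 0.12). RLTR19-int and RLTR9A3A, which had not been called with Chaf1a siRNA alone, were lowered with both pools, at -0.24 and -0.59 with si308 and at -0.34 and -0.78 with si309. Without si308 library 1 RLTR9A3A was at -0.39 with si308 (edgeR adjusted p = 0.14), and without si309 library 1 RLTR9A3A and RLTR19-int were at -0.59 and -0.31 with si309 (edgeR adjusted p = 0.15 and 0.087), none of them called. Left-out control libraries ended the si308 calls too, of RLTR9A3A without library 0 (-0.50) and of RLTR19-int without library 0 (-0.22) or library 1 (-0.27). MMERVK9C_I-int, ERVB7_1-LTR_MM, ERVB4_1C-LTR_Mm, RLTR13G and MMTV-int were called lower than the control with both pools. With only the groups compared, MMERVK9C_I-int, ERVB7_1-LTR_MM, ERVB4_1C-LTR_Mm and MMTV-int lost the si308 call (edgeR adjusted p = 0.11, 0.12, 0.055 and 0.057). RLTR19-int lost its si308 call in that fit too (edgeR adjusted p = 0.12). MMTV-int lost its si309 call with a replicate block (edgeR adjusted p = 0.056). The si308 calls were lost without negative control library 0 for MMERVK9C_I-int (-0.22), ERVB7_1-LTR_MM (-0.26), ERVB4_1C-LTR_Mm (-0.23) and RLTR13G (-0.21), without negative control library 1 for ERVB7_1-LTR_MM (-0.21) and MMTV-int (-0.39), and without si308 library 1 for MMTV-int (-0.25). The si309 call of RLTR13G was lost without negative control library 0 (-0.27), and that of MMTV-int without any 1 of the 4 libraries compared (-0.47 to -0.36).

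Between the pools no ERVK name was called, with si309 over si308 giving 0 raised and 0 lowered by edgeR, 0 and 0 by DESeq2, and 3 raised and 22 lowered at an unadjusted p under 0.05; among all repeat names 0.159% were raised and 0% lowered. The medians were -0.03 for IAP, -0.13 for ETn and -0.08 for other ERVK. This comparison rests on si308 library 1, without which 65 ERVK names were lowered and 1 raised, while without si308 library 0 there were 0 lowered and 1 raised. MMERVK10C-int had a log2 difference of 0.20 ± 0.077 (edgeR adjusted p = 0.7), and IAPEz-int one of 0.01 ± 0.08 (edgeR adjusted p = 0.97). A missing call does not show that the pools act alike.

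**Figure D4:**
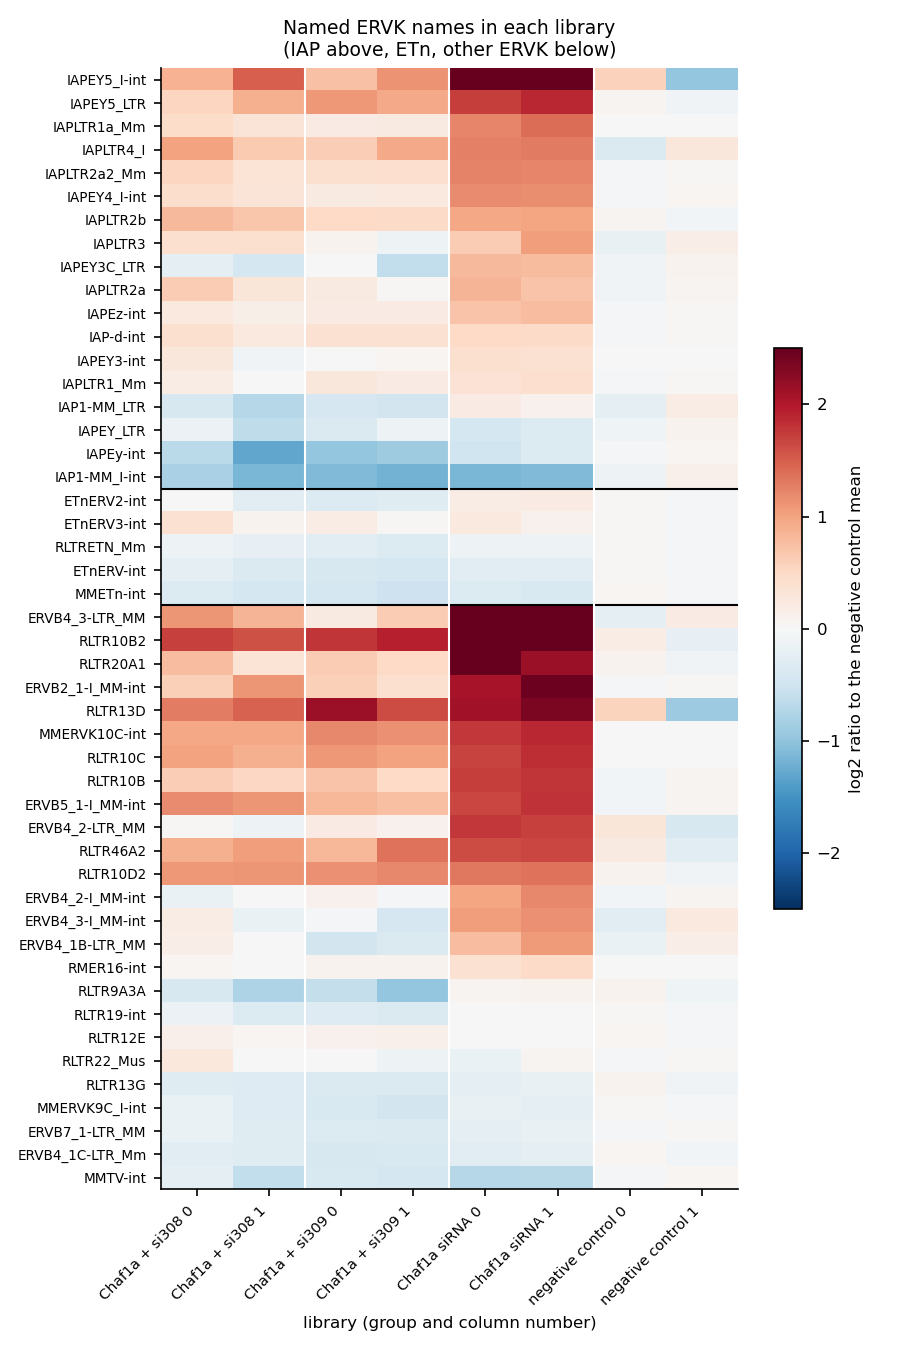
Each row is 1 of 48 ERVK names and each column 1 library, and the colour is the log2 ratio of its counts in CPM to the negative control mean, cut at 2.5 in either direction (the values run from -1.30 to 3.12). MMERVK10C-int and RLTR10C are red in all 6 depleted libraries, whereas IAP1-MM_I-int, IAPEy-int, MMETn-int and ETnERV-int are blue in all 6 depleted libraries.

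Genes tied to the silencing or restriction of retroelements were described from a list of 42, of which 41 were tested and Trex1 was not analysed here. The list also holds Tet1 and Tet2, and Chaf1a, the siRNA target, which is counted among the lowered genes below. With Chaf1a siRNA alone 13 rose and 19 fell, against 45.2% raised and 21.1% lowered among all 17970 genes tested, and 12 rose and 25 fell with TMM factors, against 37% and 30.4%. Dnmt3l (10:78041947-78063622, plus strand), a cofactor of de novo DNA methylation, had 458 and 526 CPM with si308, 545 and 577 with si309 and 564 and 556 with Chaf1a siRNA alone, against 100.0 and 95.3 in the negative control. All 6 depleted libraries were far above the control, with a log2 change of 2.52 ± 0.057 for Chaf1a siRNA alone (edgeR adjusted p = 1.7e-18). H3f3b (11:116021912-116027962, minus strand), which codes for histone H3.3, had 1386 and 1387 CPM with si308, 1509 and 1533 with si309 and 1448 and 1429 with Chaf1a siRNA alone, against 377 and 366 in the negative control, a log2 change of 1.95 ± 0.038 (edgeR adjusted p = 1.6e-19). Reads of H3f3b may be shared with its processed copies.

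The de novo methyltransferases Dnmt3a and Dnmt3b rose by 1.08 and 0.78, and Resf1, Setdb1 and its partner Atf7ip, which serve H3K9 methylation of retroelements, by 0.64, 0.39 and 0.34. The H3K9 methyltransferase Suv39h1 and the nucleotide hydrolase Samhd1 rose by 0.54 and 0.51. The cytidine deaminase Apobec3, the H3K9 methyltransferase Ehmt2 and the IAP silencing factor Morc3 were lowered, at -0.65, -0.38 and -0.38. Trim28 itself differed by -0.13, a call lost without library 0 of Chaf1a siRNA alone (-0.083), and Uhrf1, Atrx and Tet1 by -0.28, -0.22 and -0.34.

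Zfp809 (9:22225714-22243354, plus strand), a KRAB zinc finger protein that directs TRIM28 to proviruses, had 42.8 and 43.3 CPM with si308, 43.7 and 40.2 with si309 and 64.0 and 66.5 with Chaf1a siRNA alone, against 47.8 and 43.5 in the negative control. Chaf1a siRNA alone was above the other 6 libraries, which overlapped, with a log2 change over the control of 0.52 (edgeR adjusted p = 1.1e-06) and changes over Chaf1a siRNA alone of -0.60 with si308 and -0.64 with si309 (edgeR adjusted p = 1e-06 and 5.9e-07). With si308 over Chaf1a siRNA alone 7 listed genes rose and 6 fell, against 9.51% and 12.2% of all genes. The raised genes include Chaf1a, the siRNA target. Raised calls of Tet1 (0.14) and Zfp932 (0.22) were lost without si308 library 0, and that of Dnmt3b (0.088) without si308 library 1. Without library 1 of Chaf1a siRNA alone, the raised call of Apobec3 (0.16) and the lowered call of Resf1 (-0.18) were lost. The lowered call of Dnmt3l was lost without si308 library 0 (-0.092). With si309 the 4 called genes, Zfp809, Atf7ip, Trim28 and Resf1, all fell, against 4.2% and 6.66%. The Trim28 call was lost without library 1 of Chaf1a siRNA alone (-0.14, edgeR adjusted p = 0.13) or si309 library 1 (-0.17, edgeR adjusted p = 0.055), and the Resf1 call without library 1 of Chaf1a siRNA alone (-0.17, edgeR adjusted p = 0.15), si309 library 0 (-0.19, edgeR adjusted p = 0.094) or si309 library 1 (-0.21, edgeR adjusted p = 0.076). Chaf1a itself was 0.23 higher on the log2 scale with si308 than with Chaf1a siRNA alone (edgeR adjusted p = 0.031) and at 0.10 with si309, not called. The si308 call was lost without library 0 (0.17) or library 1 (0.27) of Chaf1a siRNA alone or without si308 library 0 (0.19).

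**Figure D5:**
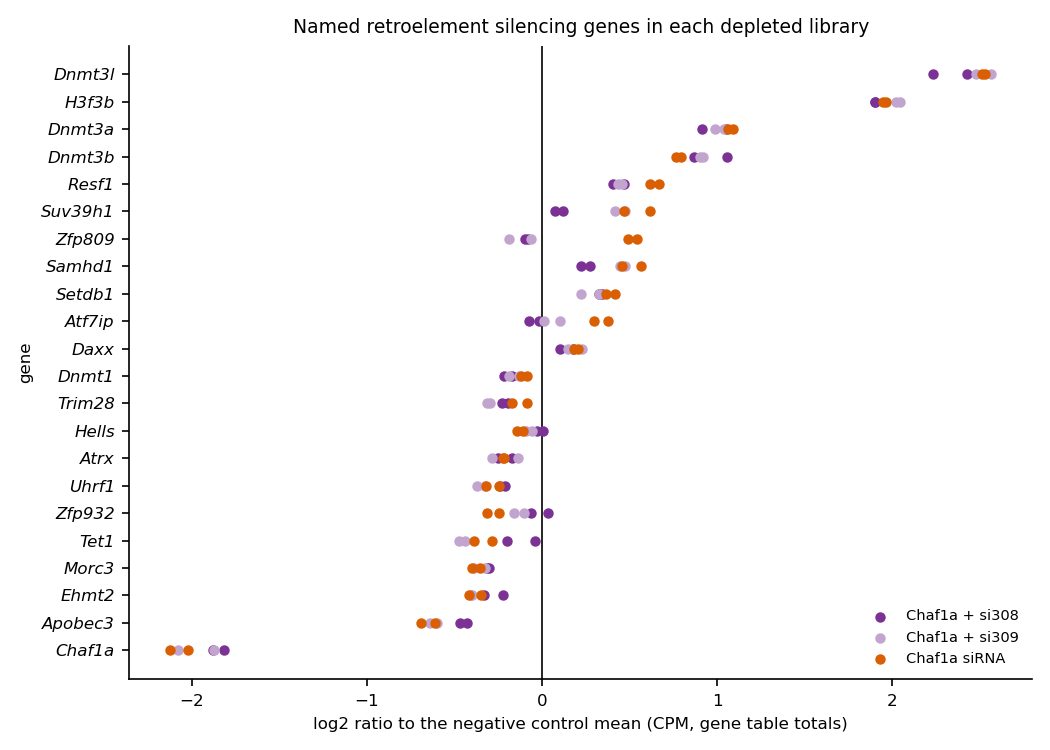
Points are single libraries of the 3 depleted groups, the x axis is the log2 ratio of counts in CPM to the negative control mean and rows are 22 named genes of the silencing list. Dnmt3l and H3f3b are far to the right in all groups, and Zfp809 is to the right with Chaf1a siRNA alone but not with either pool.

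Markers of other cell types moved with the groups and are given beside the ERVK changes. The 10 markers of 2-cell-like cells summed to 1.62 to 1.89 CPM with si308, where Tcstv1 and Tdpoz4 were at 0, 28.5 to 29.7 with si309, where Tcstv1 was at 0, and 1012 to 1065 with Chaf1a siRNA alone, against 1.15 to 1.34 in the negative control. With Chaf1a siRNA alone 9 of 9 tested markers rose, and all 9 fell with either pool over Chaf1a siRNA alone. Over the negative control all 9 were still raised with si309, with a median of 4.40. With si308 2 were raised and 1 lowered, with a median of -0.30. In si309 over si308 8 were raised and 0 lowered. The 8 primitive endoderm markers summed to 190 to 214 with si308, 221 to 237 with si309 and 259 to 276 with Chaf1a siRNA alone, against 34.9 to 41.3 in the negative control, where Sox7 was at 0. The 8 fibroblast markers summed to 47.3 to 48.9 with si308, 51.1 to 51.2 with si309 and 58.4 to 59.3 with Chaf1a siRNA alone, against 2.43 to 2.47 in the negative control, where Col3a1, Dcn, Postn and Twist2 were at 0. The 8 trophectoderm markers summed to 92.2 to 98.6 with si308, 106 in both libraries with si309 and 86.6 to 87.4 with Chaf1a siRNA alone, against 72.9 to 73.1 in the negative control. With Chaf1a siRNA alone 7 of 8 tested primitive endoderm, 5 of 5 fibroblast and 6 of 7 trophectoderm markers rose, and 6 of 10 embryonic stem cell markers fell while 2 rose. The part of these cells in the ERVK changes was not tested.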

How the data were processed

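Poly(A) libraries were stranded and read as pairs of 125 bases. Reads were aligned with Novoalign 2.8 to mm10 and DESeq2 was used, per the submitters' processing notes; the read counter and the handling of reads with several matches are not given in the sources used here. The authors deposited raw counts for each Ensembl gene and each repeat name of 8 libraries, per the file headers. They also deposited log2 fold changes over the negative control and adjusted p-values for them, of which only the calls were used. The 16 columns of regularised values were not used. Count columns carry the numbers 0 and 1 and labels the numbers 1 and 2, so columns were mapped to groups only. They are called library 0 and library 1. P-values of repeat names rest on the spread between libraries of a group, pooled over repeat names and not taken for each name.

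Counts were fitted with edgeR 4.0.16 (R 4.3.3) over all 8 libraries, with 1 mean per group, 4 residual degrees of freedom and the totals of the gene table as library sizes. Repeat names passed filterByExpr, and the quasi-likelihood F test was adjusted by Benjamini and Hochberg over 1255 repeat names, or over 17970 genes for gene lists. The fit was also run on simulated data of 1244 repeat names, with 50 better-covered names changed at each size. Of names changed 1.25-fold 46% were recovered, of those changed 1.5-fold 90%, 2-fold 94% and 4-fold 100%, and 3.51% of calls were false. These values are for Chaf1a siRNA against the negative control. All simulated names had the same spread, and the changes went up and down equally and were alike in all depleted groups. The measured data differ, with 57.7% of repeat names raised and 1.83% lowered, so these rates do not cover them or the choice of scaling. The alternatives were TMM factors of the genes, repeat totals, DESeq2 1.42.0, no filter, a fit of only the groups compared, a replicate block and each library left out.

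Named were all ETn names and, for IAP and other ERVK names, up to 6 raised and 6 lowered names per comparison with the largest change, no overlap of libraries and at least 1 CPM in the higher group, the 4 names with most reads, and up to 3 names with at least 10 CPM and the smallest change. Of the silencing genes Chaf1a, up to 4 raised and 4 lowered by adjusted p and a fixed list were named. For names picked by largest change, lack of overlap in that comparison was a condition of naming and not a separate result. Names and lists were chosen with earlier results of these data known. Deviations of libraries with the same number correlated at -0.093 to 0.051 between groups over 1255 names, so the numbers were not taken as pairs. This does not exclude a shared batch. Gene positions are from GENCODE for GRCm38 (mm10). Repeat sequences were not used here.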

Additional observations from a re-analysis of the deposited data

How the results depend on the processing

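Counts depended on the scaling and, in some comparisons, on single libraries or the groups fitted. For Chaf1a siRNA over the negative control, repeat totals gave 10 raised IAP names, 0 raised and 5 lowered ETn names, and 73 raised and 52 lowered other ERVK names; DESeq2 gave 13 raised IAP, 0 raised ETn and 101 raised other names. Raised ETn names were 0 with TMM factors and 1 without a filter. For si308 over Chaf1a siRNA alone, repeat totals gave 1 raised IAP name, 4 raised and 0 lowered ETn names, and 43 raised and 56 lowered others. For si309 over Chaf1a siRNA alone they gave 3 raised and 11 lowered IAP names, 4 raised ETn names, and 29 raised and 45 lowered others; lowered ETn names were 2 with TMM factors, 3 with DESeq2 and 4 with only the groups compared. For si308 over the control, raised ERVK names were 39 with TMM factors, 46 with repeat totals, 26 with DESeq2 and 68 with only the groups compared, and lowered names 33 with repeat totals and 9 with only the groups compared. For si309 over the control, raised names were 29 with TMM factors and 20 with DESeq2, and lowered names 36, 35, 26 and 27 with TMM factors, repeat totals, DESeq2 and only the groups compared. For si309 over si308, repeat totals gave 2 raised names.

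Log2 ratios of summed levels for Chaf1a siRNA over the control, which were 0.54 for IAP, -0.27 for ETn and 0.46 for other ERVK, became 0.38, -0.43 and 0.31 with TMM factors and 0.099, -0.71 and 0.026 as shares of repeat counts. As shares, the ratios over Chaf1a siRNA alone were -0.22, 0.20 and -0.028 with si308 and -0.16, 0.18 and -0.017 with si309, which for ETn is the opposite direction. Repeat totals also turned round, for Chaf1a siRNA over the control, ETnERV2-int (-0.24), ETnERV3-int (-0.25), IAPEY3-int (-0.041), IAPLTR1_Mm (-0.048) and RMER16-int (-0.0099), for si309 over Chaf1a siRNA alone MMERVK9C_I-int (0.11), and for si308 over the control IAPEz-int (-0.010). RLTR19-int turned to -0.15 with TMM factors, -0.43 with repeat totals, -0.17 with DESeq2 and -0.020 to 0.029 with single libraries left out. RLTR12E turned to 8e-04 with only the groups compared and spanned -0.054 to 0.051 with single libraries left out, and RLTR22_Mus reached 0.069. The causes were not tested.

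Leaving out each library in turn, a step added for the sums after seeing the data, gave for Chaf1a siRNA over the control 0 to 1 raised ETn names and 2 to 4 lowered other names. For si308 over Chaf1a siRNA alone it gave 0 to 1 raised and 10 to 20 lowered IAP names, 0 to 1 raised and 0 to 1 lowered ETn names, 0 to 3 raised and 62 to 137 lowered others, and an ETn sum ratio of -0.086 to 0.030. For si309 over Chaf1a siRNA alone 75 to 97 others were lowered. Over the control, si308 had 51 to 148 raised and 8 to 22 lowered ERVK names and si309 33 to 52 and 8 to 12; si309 over si308 had 0 to 1 and 0 to 65. The replicate block was made from column numbers that are not stated to pair the libraries. It gave 0 raised ETn names for Chaf1a siRNA over the control in place of 2 and moved no other set count by over 1.5 times. Of 200 single-name results, 85 lost their call or changed direction under some setting, and 10 of them changed direction.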
